A study of Mus musculus with 4 samples.

Results

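Mesenchymal-to-epithelial transition (MET) was read from 10 genes: the transcription factors Snai1, Snai2, Zeb1, Zeb2, Twist1 and Twist2, the cadherins Cdh1 and Cdh2, the intermediate filament gene Vim, and Epcam. The genes were chosen by name, and every non-control probe that carried their symbols was taken. They made up 10 of 34816 genes, 13 of 55681 probes and 22 of 59305 non-control spots on the array. Of the 13 probes, 12 were well above background on all 4 arrays, and these covered all 10 genes. The exception was the dimmest of 3 Zeb2 probes (A_55_P2119388), which rose above background on none of the arrays.

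The cells were mouse embryonic fibroblasts isolated at E13.5 and labelled male, with an EGFP transgene driven by the Oct4 promoter (OE-MEFs). All groups received retroviral Oct4, Sox2 and Klf4 (OSK). The OSKA groups also received AKT-MER, a fusion of myristoylated AKT with a modified estrogen receptor that is switched on by its ligand, 4-hydroxytamoxifen (4OHT). From 3 days postinfection (dpi) the cells were given 4OHT or the ethanol vehicle, and whole cultures were sampled at 8 dpi. This gave 4 groups, which were OSK − 4OHT, OSK + 4OHT, OSKA − 4OHT (AKT-nonactivated cells) and OSKA + 4OHT (AKT-activated cells). Each group was 1 mixed, transduced culture on 1 array, without selection for cells that had taken up all of the vectors as far as the sources used here state. The free-text description of the OSKA + 4OHT array contradicts its title on whether AKT-MER was activated. The title was used.

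Reprogramming of fibroblasts passes through MET, in which cells lose the features of migratory mesenchyme and gain cell-to-cell junctions. The SNAI, ZEB and TWIST factors drive the opposite change. SNAI and ZEB proteins bind the E-box CAGGTG in the promoters of epithelial genes, Cdh1 among them, and repress them. A fall of Cdh2 (N-cadherin, the cadherin of mesenchymal and neural cells) with a rise of Cdh1 (E-cadherin, the cadherin of epithelial junctions) is known as the cadherin switch of MET.

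Because the SNAI and ZEB factors read the E-box, promoters were searched for CAGGTG, which on the opposite strand reads CACCTG. The window ran from 250 bases before to 50 bases after each transcription start in the RefSeq table of GRCm38.p6. The E-box was present in 20.2% of all 32851 windows and for 22.6% of 27025 genes. Windows were found for 6 of the 10 EMT genes, namely Snai1, Zeb2, Twist1, Twist2, Vim and Epcam, and 2 of these held the E-box. Both are printed over the 250 bases before the start, on the plus strand and with the E-box in capitals, since Epcam is the epithelial target and Snai1 encodes a factor that reads this motif. In Epcam (chr17:87635729-87635978) the motif began at −187 and at −19 from the start, and in Snai1 (chr2:167537945-167538194) at −126.
Epcam: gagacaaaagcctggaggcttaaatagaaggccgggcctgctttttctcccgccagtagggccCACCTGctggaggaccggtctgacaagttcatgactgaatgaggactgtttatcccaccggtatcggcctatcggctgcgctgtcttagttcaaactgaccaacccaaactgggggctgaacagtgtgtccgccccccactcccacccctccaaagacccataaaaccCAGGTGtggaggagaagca
Snai1: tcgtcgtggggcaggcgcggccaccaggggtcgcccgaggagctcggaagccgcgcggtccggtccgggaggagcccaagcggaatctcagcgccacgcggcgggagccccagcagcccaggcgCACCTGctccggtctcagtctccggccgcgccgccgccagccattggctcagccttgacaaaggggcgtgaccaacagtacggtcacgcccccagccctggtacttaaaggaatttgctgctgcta

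The same search was made in the lists of epithelial and mesenchymal genes used further on. Among genes of epithelial structure (junction, keratin and membrane protease genes), 16 of the 19 with a window held the E-box (84.2%). Lsr, which encodes a receptor of tricellular junctions, held it at −249, −219, −151 and −69. Among genes of mesenchymal structure (matrix, contractile and surface genes), 1 of 15 held it (6.67%). Among regulators of epithelial identity it was 3 of 6. The median GC content of the windows was 61.8% in the epithelial list, 55.3% in the mesenchymal list and 52.7% in the whole table, and its part in these shares was not tested. A match of the letters is a description of the sequence and not a measured binding site.

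Levels are log2 intensities from which the 75th percentile of the same array was subtracted. There was 1 array per group, so no difference has a replicate check and no test was run. The error given with a difference is the scanner software's own error of the 2 signals, 0.20 unless stated, which covers the measurement on the arrays and not the variation between cultures. Scaling to spike-in probes instead shifts all genes of a contrast alike. It took the median of all genes to −0.31 with 4OHT in OSK cells, −0.46 with AKT-MER without 4OHT and −0.18 with AKT-MER and 4OHT, and left it at −0.02 with 4OHT in OSKA cells, so that orders of levels across the arrays and of 4OHT effects between OSKA and OSK cells hold under the 75th percentile and can turn under spike-in scaling. All arrays were on 1 slide, and slide position and group cannot be told apart. Between 52.4% and 55.4% of spots were well above background per array, and none was saturated. In whole cultures, fewer cells of a type and less RNA per cell cannot be told apart.

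The cultures were checked against marker genes. All 10 fibroblast markers were measured on every array, with a mean level between 5.70 and 6.08. Of 8 pluripotency markers, 6 were measured on every array, with a mean between −1.76 and −1.68, whereas neither Zfp42 nor Esrrb was detected above background. Of 5 keratinocyte markers 3 were measured on every array (mean 0.15 to 0.59) and Ivl on none. That mean rests on the brightest probe of Trp63 (2.92 to 3.07), while Krt14 (−2.10 to −0.78) and Krt10 (−0.53 to −0.06) lay below 0. Of 5 endothelial markers 3 (Pecam1, Tek and Kdr) were measured on every array (mean −0.25 to 0.17), and Cdh5 and Tie1 on none. All 5 macrophage markers were measured, with means of 3.86 in OSK − 4OHT, 4.35 in OSK + 4OHT, 4.32 in OSKA − 4OHT and 4.198 in OSKA + 4OHT cells. The cultures therefore carried transcripts of macrophage markers beside those of fibroblasts, with the lowest mean in OSK − 4OHT cells.

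**Figure D1:**
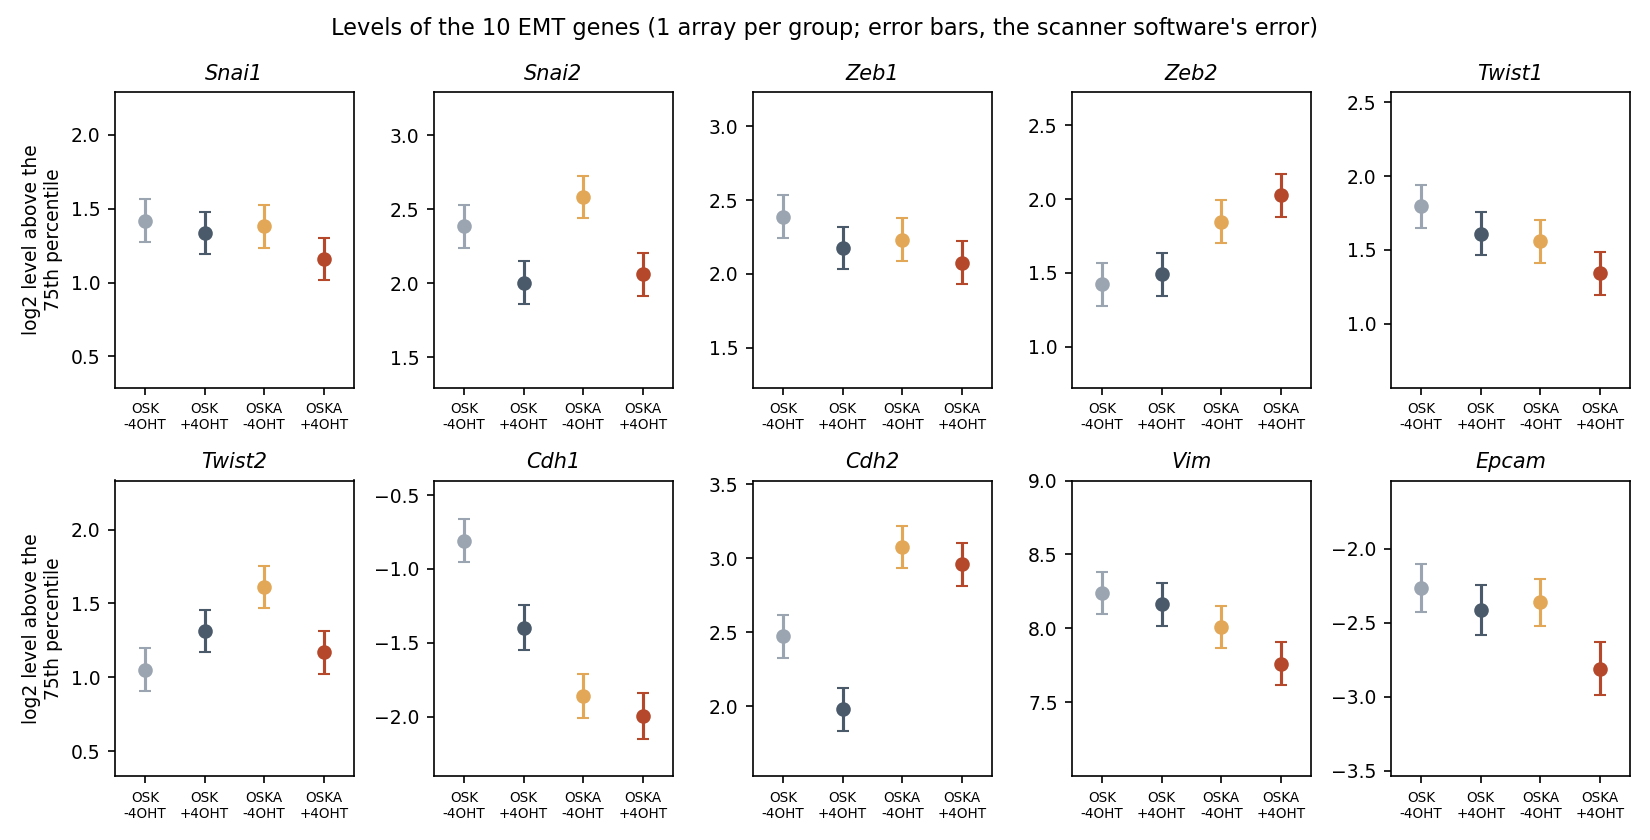
Log2 level of the brightest probe of each of the 10 EMT genes (vertical axis, with the array's 75th percentile at 0) on the 4 arrays (horizontal axis). Every panel spans 2 log2 units, points are single arrays and bars are the scanner software's error. Cdh1 was highest in OSK − 4OHT cells (−0.81) and Cdh2 was higher on both OSKA arrays (3.08 and 2.96) than on both OSK arrays (2.47 and 1.98).

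The transcription factors were considered first. In AKT-activated cells 5 of the 6 were lower than in AKT-nonactivated cells, by amounts short of 2-fold. The differences ran from −0.52 for Snai2 to 0.18 for Zeb2, with a median of −0.22. For comparison, the median of all 20300 genes measured in this contrast was −0.03, and 54.8% of them were lower. None of the 10 EMT genes differed by at least 2-fold in this contrast, in which 2.91% of all genes did.

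Snai2 encodes SLUG, a repressor of Cdh1 that is strongly expressed in fibroblasts. Its level was 2.39 in OSK − 4OHT, 2.004 in OSK + 4OHT, 2.58 in OSKA − 4OHT and 2.06 in OSKA + 4OHT cells (A_51_P305547, chromosome 16, 14709361 to 14709420 in NCBI37). Both cultures given 4OHT were thus below both cultures given vehicle. The 4OHT difference was −0.52 in OSKA cells, a 1.44-fold lower level, and −0.38 in OSK cells, a 1.30-fold lower level. The difference between these 4OHT effects, −0.14, was within its software error of 0.29, and the order turned under scaling to spike-in probes (−0.52 in OSKA and −0.69 in OSK cells). Of all genes, 6.01% lay below Snai2 in the OSKA contrast and 6.01% in the OSK contrast, which lacks AKT-MER. The AKT-MER differences were 0.20 without 4OHT and 0.06 with 4OHT, both within the error. Under scaling to spike-in probes these became −0.25 and −0.07.

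Snai1 encodes SNAIL, the first described repressor of this family. Its level was 1.42, 1.33, 1.38 and 1.16 in OSK − 4OHT, OSK + 4OHT, OSKA − 4OHT and OSKA + 4OHT cells (A_51_P165087, chromosome 2, 167368073 to 167368132). The AKT-activated array was the lowest. The 4OHT difference was −0.22 in OSKA cells, just beyond the error, and −0.08 in OSK cells. Under scaling to spike-in probes the order of the 2 turned, to −0.21 and −0.39, and the difference between OSKA − 4OHT and OSK − 4OHT cells went from −0.04 to −0.48.

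The ZEB factors moved apart from each other. Zeb1 lay at 2.39, 2.18, 2.23 and 2.08 in the same order of arrays. Its differences all lay between −0.21 and −0.10, and only the 4OHT difference in OSK cells (−0.21) was beyond the error, by so little that it fell within it after normexp and quantile normalization (−0.19). Under scaling to spike-in probes it was −0.52, and the AKT-MER difference without 4OHT −0.60. Zeb2, a repressor with largely the same targets, lay at 1.42, 1.49, 1.85 and 2.03 (A_52_P596008, chromosome 2, 44842774 to 44842833), so that both OSKA arrays were above both OSK arrays. It was 1.34-fold higher with AKT-MER without 4OHT (0.42) and 1.45-fold higher with AKT-MER and 4OHT (0.53). A dimmer probe of the same transcript gave 0.68 and 0.36, with software errors of 0.23 each. Scaling to spike-in probes brought the first value of the brighter probe to −0.02 and left the second at 0.40. With 4OHT in OSKA cells the brighter probe gave 0.18 and the dimmer −0.06, both within the error.

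TWIST1 and TWIST2 are basic helix-loop-helix factors of mesenchyme. Twist1 lay at 1.80, 1.61, 1.56 and 1.34, with the highest level in OSK − 4OHT and the lowest in AKT-activated cells. The 4OHT differences were −0.21 in OSKA and −0.18 in OSK cells, and the AKT-MER differences −0.24 without and −0.27 with 4OHT. Scaling to spike-in probes took the 4OHT difference in OSK cells to −0.49 and the AKT-MER difference without 4OHT to −0.68. Twist2 lay at 1.05, 1.31, 1.61 and 1.17 (A_51_P165504, chromosome 1, 93744519 to 93744577), highest in AKT-nonactivated cells. With 4OHT it was lower in OSKA cells (−0.44) and higher in OSK cells (0.26), and the latter became −0.04 under scaling to spike-in probes. The 2 effects differed by −0.71 (software error 0.29), or by −0.39 under scaling to spike-in probes.

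Cdh1 spanned 1.19 log2 units over the 4 arrays. Its probe (A_51_P137336, chromosome 8, 109193812 to 109193871) was spotted 10 times on each array, so that the spread between spots could be seen. The 10 spots read 245 to 303 intensity units in OSK − 4OHT cells (median 259), 129 to 166 in OSK + 4OHT cells (median 145), 105 to 123 in OSKA − 4OHT cells (median 109) and 76.9 to 117 in OSKA + 4OHT cells (median 99.1). Cdh1 was therefore dimmest in the AKT-activated culture and brightest in the culture with neither AKT-MER nor 4OHT. The log2 levels were −0.81, −1.40, −1.86 and −1.99. The spot ranges of the 2 OSKA arrays overlapped, and those of every other pair compared here did not.

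**Figure D2:**
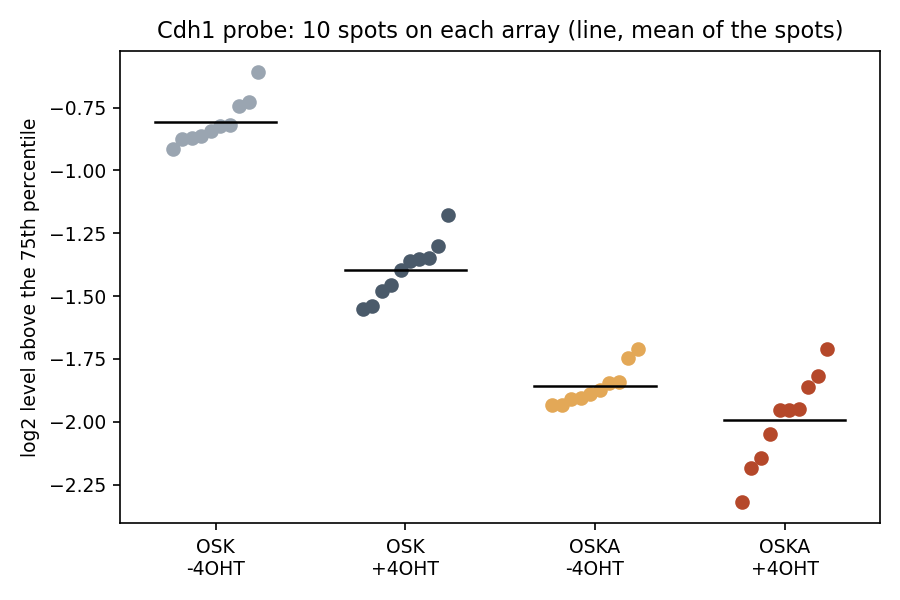
Log2 level of each of the 10 spots of the Cdh1 probe (points, vertical axis, with the array's 75th percentile at 0) on the 4 arrays, with the mean as a line. The means were −0.81, −1.40, −1.86 and −1.99, and the spots are repeats on an array and not replicate cultures.

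With 4OHT in OSKA cells Cdh1 differed by −0.14 (software error 0.22). Of the 10 spot positions 8 were lower and 2 higher, and the spot difference ranged from −0.41 to 0.22. In OSK cells the 4OHT difference was −0.59 (error 0.21), or 0.665-fold, and was lower at all 10 positions. Only 1.61% of the 19861 genes of that contrast lay below it. The 1 EMT gene at least 1.5-fold apart there was Cdh1, and 5.95% of all genes passed that size, while 0.886% passed 2-fold and no EMT gene did. After normexp and quantile normalization Cdh1 was at −0.45 there, short of 1.5-fold, and under scaling to spike-in probes 3 EMT genes passed it, Cdh1 (−0.89), Cdh2 (−0.80) and Snai2 (−0.69). The fall with 4OHT was thus smaller in OSKA than in OSK cells, by 0.45 (error 0.30), or 0.77 under scaling to spike-in probes.

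AKT-MER without 4OHT gave the only difference of at least 2-fold among the 10 genes. Cdh1 was 2.07-fold lower in OSKA − 4OHT than in OSK − 4OHT cells (−1.05, error 0.21), and every spot position was lower, by values from −1.16 to −0.92. The share of all genes that differed by at least 2-fold was 2.02%, and 0.783% lay below Cdh1. After normexp background correction and quantile normalization the difference was −0.78, short of 2-fold. With 4OHT on both arrays it was −0.60 (error 0.21), a 1.51-fold lower level, with 3.04% of all genes at least 2-fold apart and none of the EMT genes. This became −0.39 after normexp and quantile normalization, short of 1.5-fold. The 5 macrophage markers were all higher in OSKA − 4OHT than in OSK − 4OHT cells (median 0.44) and all higher in OSK + 4OHT than in OSK − 4OHT cells (median 0.52). Fibroblast markers had a median difference of 0.24 and 0.00 in these comparisons. The part of either in the Cdh1 differences was not tested.

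Cdh2 differed mainly with AKT-MER. Its brighter probe (A_55_P2029711) lay at 2.47, 1.98, 3.08 and 2.96, and its second probe (A_55_P2000133) at 1.57, 1.47, 2.17 and 2.15, in the order OSK − 4OHT, OSK + 4OHT, OSKA − 4OHT and OSKA + 4OHT. By either probe both OSKA arrays were above both OSK arrays. The brighter probe was 1.52-fold higher with AKT-MER without 4OHT (0.60) and 1.97-fold higher with AKT-MER and 4OHT (0.98), where 1.99% of all genes lay above it. The second probe gave 0.60 and 0.69. Under scaling to spike-in probes the first value of the brighter probe was 0.16, within the error. At 1.5-fold, the EMT genes apart were Cdh1 and Cdh2 in each AKT-MER contrast, where 9.65% of all genes passed without and 10.6% with 4OHT. These sets changed with the processing. Without 4OHT, scaling to the median left Cdh1 (Cdh2 at 0.56), and scaling to spike-in probes gave 4 genes, Cdh1, Twist1 (−0.68), Vim (−0.67) and Zeb1 (−0.60). With 4OHT, Cdh2 alone passed after either quantile setting.

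With 4OHT Cdh2 differed by −0.12 in OSKA cells, or −0.02 by the second probe. In OSK cells the probes disagreed in size, with −0.49 by the brighter (−0.80 under scaling to spike-in probes) and −0.10 by the second. With AKT activation no EMT gene was 1.5-fold apart, against 9.69% of all genes.

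**Figure D3:**
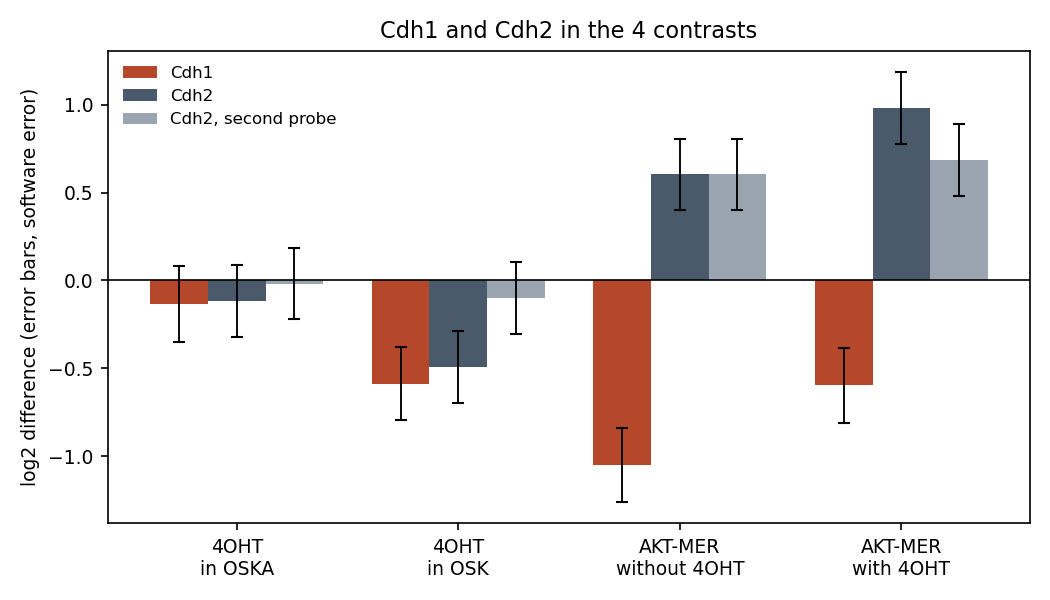
Log2 difference of Cdh1 and of the 2 Cdh2 probes (bars, vertical axis) in the 4 contrasts (horizontal axis), with the scanner software's error. With AKT-MER, Cdh1 was lower (−1.05 and −0.60) and Cdh2 higher (0.60 and 0.98), and with 4OHT in OSKA cells all 3 bars were within the error.

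The cadherin switch was summarised as the change of Cdh1 minus that of Cdh2, which does not depend on the single factor by which an array is scaled. MET would give a value above 0. With AKT activation by 4OHT it was −0.02 (software error 0.30), or −0.12 with the second Cdh2 probe, and its sign turned after quantile normalization (0.03) and after normexp and quantile normalization (0.06), all within the error. With 4OHT in OSK cells it was −0.09 (error 0.29), or −0.49 with the second probe. For AKT-MER it was −1.65 without 4OHT (error 0.29) and −1.58 with 4OHT (error 0.30), so that the ratio of Cdh1 to Cdh2 was 3.15-fold and 2.99-fold lower in OSKA than in OSK cells. The second probe gave −1.65 and −1.28. The AKT-MER contrasts share their arrays with the 4OHT contrasts, so that the 4 values are not independent.

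Vim encodes vimentin, the intermediate filament of mesenchymal cells. It was bright on every array, at 139620, 107852, 103754 and 83165 intensity units in OSK − 4OHT, OSK + 4OHT, OSKA − 4OHT and OSKA + 4OHT cells (A_51_P392687, chromosome 2, 13504232 to 13504291), or log2 levels of 8.24, 8.16, 8.01 and 7.76. AKT-activated cells were lowest. The 4OHT difference was −0.25 in OSKA and −0.08 in OSK cells, an order that turned after quantile normalization (−0.13 and −0.21), after normexp and quantile normalization (−0.16 and −0.21) and under scaling to spike-in probes (−0.24 and −0.38). After either quantile setting the OSKA value was within the error. The difference between AKT-activated cells and OSK + 4OHT cells was −0.40, a 1.32-fold lower level, and became −0.13 after quantile normalization, within the error.

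Epcam, an adhesion molecule of epithelial and pluripotent cells, was dim. It read 96.3, 70.9, 78.5 and 54.6 intensity units in the same order (A_52_P447944, chromosome 17, 88048972 to 88049800, a match of 829 bases that a spliced transcript gives), or log2 levels of −2.26, −2.41, −2.36 and −2.81. The AKT-activated array was the lowest. The 4OHT difference was −0.45 in OSKA cells (error 0.24), a 1.37-fold lower level, and −0.15 in OSK cells (error 0.23). The OSKA value was −0.25 after normexp and quantile normalization, about the size of the error, and under scaling to spike-in probes the values were −0.44 and −0.45, with no gap left between them. Epcam and Vim, an epithelial and a mesenchymal gene, were thus both lowest in AKT-activated cells. Of the 10 genes, 9 were lower with 4OHT in OSKA cells, where 54.8% of all genes were lower, and 6 of the 10 differed beyond the error, as did 42.5% of all genes. The median was −0.22. Among the 6, Snai1, Twist1 and Vim lay near the error and fell within it under some settings (Snai1 and Twist1 after scaling to the median, −0.20 and −0.19). In OSK cells 8 were lower, against 50.6% of all genes, with a median of −0.17, and all 10 were lower under scaling to spike-in probes.

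**Figure D4:**
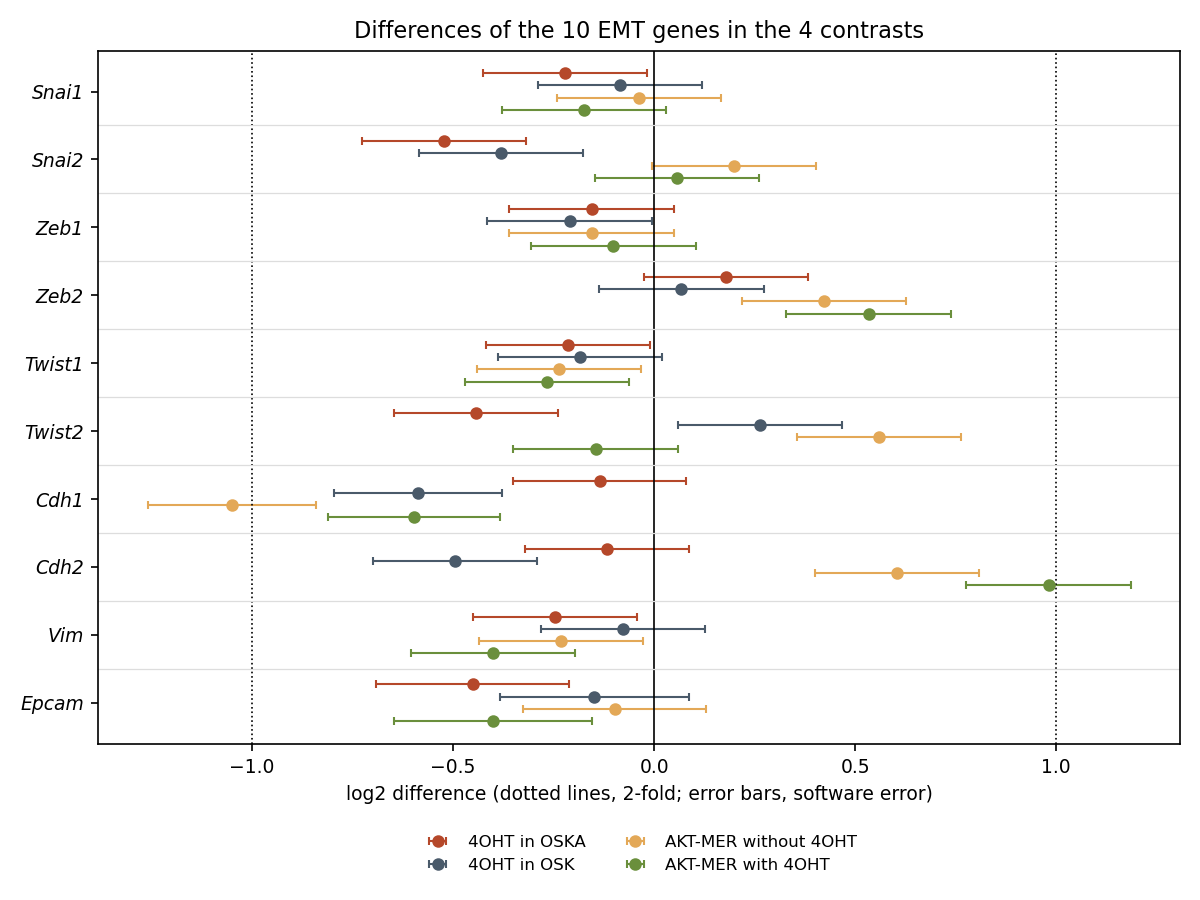
Log2 difference of the brightest probe of each EMT gene (horizontal axis) in the 4 contrasts (colours), with the scanner software's error as bars and 2-fold as dotted lines. Cdh1 with AKT-MER without 4OHT (−1.05) is the only point past 2-fold, and 9 of the 10 points of the 4OHT contrast in OSKA cells are below 0.

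Genes that act with these 10 were taken from 7 lists of 112 genes. Genes of epithelial structure gave a different picture from Cdh1 and Epcam. Of 26 genes, 19 were measured in AKT-activated and nonactivated cells, 13 of them higher with 4OHT, where 54.8% of all genes were lower, with a median of 0.38. Of these 19, 2 were at least 2-fold higher and none 2-fold lower, and of all 20300 genes 2.91% were at least 2-fold apart, 408 higher and 183 lower. The count is by brightest probes, and Spint1, at 0.46 by that probe, was at 1.05 by a second. The lowest, singled out after its value was seen, was the keratin Krt19 (−0.96). With no filter on dim probes 18 of all 26 were higher, with a median of 0.19, against 0.06 over all genes. After normexp and quantile normalization the median of the 19 was 0.11, with 1 gene at least 2-fold higher, and over the 17 genes measured on all 4 arrays it was 0.18. Cldn3, a claudin of tight junctions, lay at −0.38, −0.81, −1.39 and 0.13 in OSK − 4OHT, OSK + 4OHT, OSKA − 4OHT and OSKA + 4OHT cells, a 4OHT difference of 1.52 in OSKA cells. Dsp, the desmosomal plaque protein desmoplakin, lay at −1.71, −2.40, −2.88 and −1.52, a difference of 1.35 that was 0.78 after normexp and quantile normalization. Both were therefore lowest in AKT-nonactivated cells. The keratinocyte marker Krt14 differed by 1.33 in the same contrast, and its partner Krt5 was well above background in AKT-activated cells alone, at least 1.75-fold higher than in AKT-nonactivated cells. Of the rest of the keratinocyte list, Trp63 was at −0.08 (0.54 by a second measured probe), Krt10 was at 0.08 (−0.42 by a second probe) and Ivl was detected on no array, so that the median of the 3 genes measured on both arrays was 0.08. The part of these markers was not tested.

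In OSK cells 13 of 17 genes of epithelial structure were lower with 4OHT (median −0.21), where 50.6% of all genes were lower. Under scaling to spike-in probes 16 of 17 were lower (median −0.51). With no filter on dim probes 13 of all 26 were lower and 13 higher there (median −0.02, against 0.08 over all genes). With AKT-MER without 4OHT 15 of 17 were lower (median −0.54), where 53.0% of all genes were lower. Of the 17, 4 were at least 2-fold lower, where 2.02% of all genes were at least 2-fold apart, 219 higher and 188 lower. Spint2 counted as higher by its brightest probe (0.34), but a second measured probe was at −1.07. With no filter on dim probes 20 of 26 were lower (median −0.25, against −0.09 over all genes). Of the 26, 4 were at least 2-fold lower and 1 at least 2-fold higher, against 8.59% of all genes at least 2-fold apart. The 4 were Krt8 (−1.23), a keratin of simple epithelia, Dsp (−1.17), Spint1 (−1.10), an inhibitor of membrane serine proteases, and Cldn3 (−1.005), and they were singled out after their values were seen. After normexp and quantile normalization only Krt8 kept this size (−1.11) and the median was −0.36, whereas under scaling to spike-in probes all 17 genes were lower and 8 at least 2-fold lower (median −0.98). Of all genes, 0.367% were at least 2-fold apart under the first setting and 4.73% under the second. The 3 measured keratinocyte markers had a median of −0.28 with 4OHT in OSK cells and of −0.47 with AKT-MER without 4OHT, where Krt14 was at −0.71, and their part was not tested. Cdh1 shared the direction of the epithelial list in these comparisons. In AKT-activated cells the list had a median of −0.01 against OSK + 4OHT cells, which was 0.01 after normexp and quantile normalization and −0.14 under scaling to spike-in probes.

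The regulators of epithelial identity were mostly dim. Of 12 genes, 7 were measured in AKT-activated and nonactivated cells. Grhl3 (2.48), Ehf (1.79) and Grhl1 (1.53), transcription factors of surface epithelia, were at least 2-fold higher with 4OHT in OSKA cells, where 2.91% of all genes were at least 2-fold apart. Esrp1 (−1.27), an epithelial splicing regulator, was at least 2-fold lower. After normexp and quantile normalization Grhl3 was at 1.10, Ehf at 1.30, Grhl1 at 0.67 and Esrp1 at −0.39. Of the 7 genes 4 were higher and 3 lower, where 54.8% of all genes were lower. Their median was 0.04, which was −0.02 among genes measured on all 4 arrays. With no filter on dim probes 8 of all 12 were higher and 4 lower, 5 were at least 2-fold higher and 1 lower, and the median was 0.19. Over all genes 9.58% were then at least 2-fold apart, with a median of 0.06. Elf3, an epithelial ETS factor, was well above background in AKT-activated but not in AKT-nonactivated cells, at least 2.59-fold higher. In OSK cells none of 6 differed by 2-fold with 4OHT, against 0.886% of all genes.

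**Figure D5:**
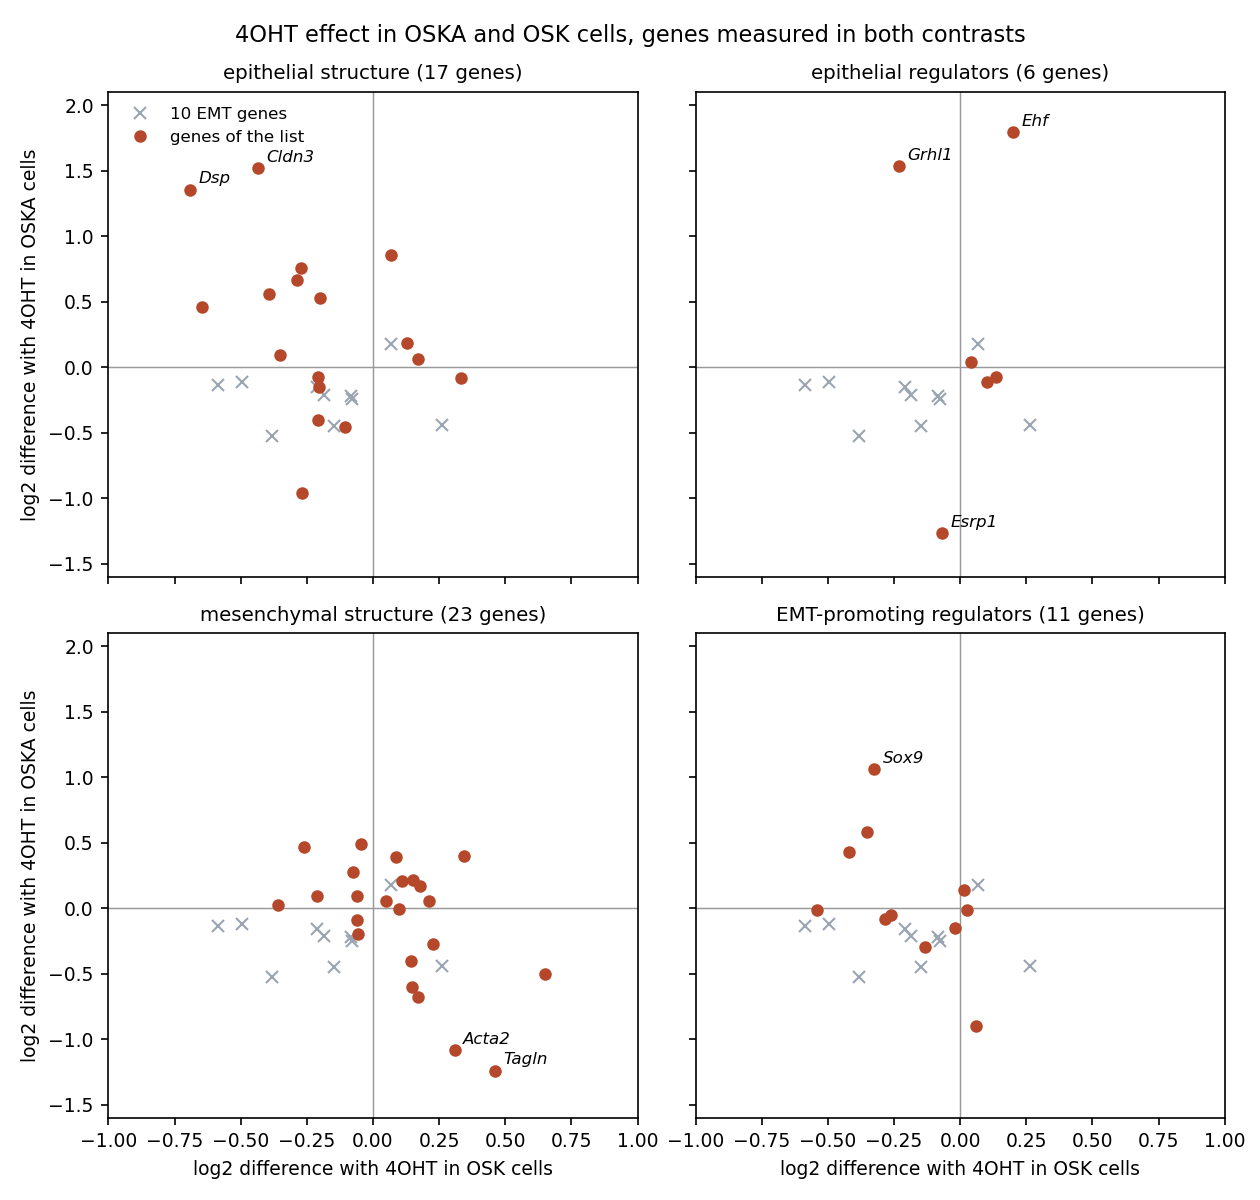
Log2 difference with 4OHT in OSK cells (horizontal axis) and in OSKA cells (vertical axis) for genes of 4 lists (circles) and the 10 EMT genes (crosses), each measured on all 4 arrays, so that Grhl3 is not drawn. Named genes were at least 2-fold apart in OSKA cells, with Cldn3 (1.52), Dsp (1.35), Grhl1 (1.53), Ehf (1.79) and Sox9 (1.06) higher and Esrp1 (−1.27), Acta2 (−1.08) and Tagln (−1.24) lower.

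Genes of mesenchymal structure did not move one way with AKT activation. Of 23 measured genes 13 were higher and 10 lower with 4OHT in OSKA cells (median 0.06), where 54.8% of all genes were lower and 2.91% at least 2-fold apart. The 2 that were at least 2-fold lower were Tagln (−1.24) and Acta2 (−1.08), which encode contractile proteins of smooth muscle and myofibroblasts. In OSK cells the same genes differed by 0.46 and 0.31. With AKT-MER without 4OHT 20 of 23 were higher, where 53.0% of all genes were lower (median 0.25). Under scaling to spike-in probes 18 of the 23 were lower (median −0.20). By the 75th percentile Tnc, a matrix glycoprotein singled out after its value was seen, just reached 2-fold higher in this contrast, where 2.02% of all genes were at least 2-fold apart. It fell short after normexp and quantile normalization (0.93), under scaling to spike-in probes (0.56) and by its second probe (0.55). Lox was at 0.62 by its brightest probe and at 1.28 by its second, so that the call depended on the probe.

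Among 11 measured regulators known to promote EMT, 1 was at least 2-fold apart with 4OHT in OSKA cells, where 2.91% of all genes were. It was Sox9 (1.06), a transcription factor of cartilage and of several epithelia, which fell short after normexp and quantile normalization (0.86). Hmga2, a chromatin protein that raises Snai1, had the lowest value (−0.90, and −1.06 by a second probe) and was singled out after its value was seen. The list had a median of −0.01, which became 0.01 after normexp and quantile normalization. TGF-beta signalling induces the SNAI and ZEB factors, whereas BMP signalling is known to favour MET in reprogramming fibroblasts. Their joint list also holds inhibitors such as Smad6, Smad7 and Ski, so its count has no single direction of signalling. In it, 17 of 23 genes were lower with 4OHT in OSKA cells (median −0.17), where 54.8% of all genes were lower. The same count, 17 of 23, was lower in OSK cells (median −0.12, and −0.42 under scaling to spike-in probes), where 50.6% of all genes were lower. By brightest probes none was 2-fold apart in either, where 2.91% and 0.886% of all genes were. Another of the 4 probes of Tgfbr1 was at 1.02 in OSK cells, against 0.06 by the brightest. The lowest in OSKA cells were Bmp4 (−0.91) and Tgfb3 (−0.81), both ligands, and the highest Tgfb2 (0.42), a ligand, and Bmpr1b (0.35), a BMP receptor.

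The catenins that tie cadherins to actin were present on all arrays. In AKT-activated cells Ctnna1 (−0.11), Ctnnb1 (−0.06) and Ctnnd1 (−0.15) differed little, and Jup, the plakoglobin of junctions, was well above background on the other three arrays but not on this one, at least 1.88-fold lower than in AKT-nonactivated cells. Of 11 other cadherins, none of the 8 measured was 2-fold apart with 4OHT in OSKA cells, where 2.91% of all genes were. The lowest were Cdh4 (−0.76) and Cdh3 (−0.71) and the highest Cdh15 (0.71) and Cdh10 (0.68). With AKT-MER without 4OHT Cdh3, the P-cadherin of basal epithelia, was higher by 1.46 and Cdh4, a cadherin of retina and brain, by 1.01, which are again genes singled out after their values were seen. These were 2 of 7 measured, where 2.02% of all genes were at least 2-fold apart. Cdh11 was at 0.36, and at 1.05 by a second probe. After normexp and quantile normalization Cdh3 and Cdh4 were at 0.96 and 0.70, both short of 2-fold, and under scaling to spike-in probes at 1.02 and 0.56. Cdh1 (−1.05) and Cdh3 thus differed in opposite directions in that contrast.

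The genes whose levels over the 4 arrays ran most like those of a member were found by the root mean square difference of centred log2 levels, over 14276 genes with a symbol. For Cdh1 these were Notch4 (0.03), Tcf15 (0.04) and Myzap (0.04), and 17 genes lay within 0.1. For Cdh2 they were Trp53inp1 (0.05), Duoxa1 (0.06) and Mogat2 (0.07), with 5 genes within 0.1. For Snai2 they were Adamts16 (0.03), 5830454E08Rik (0.04) and Smpdl3b (0.04), with 57 within 0.1, and for Epcam BC003965, Nrbp2 and LOC100861738 (0.01 each), with 908 within 0.1. The levels of Cdh1 and Cdh2 spanned 1.19 and 1.10 log2 units over the arrays, and those of Epcam 0.55. The radius was 0.1 for each member, whatever its span, so these counts do not show how common a pattern was. Over 4 arrays such a likeness is a description only.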

How the data were processed

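Per the labels and the methods, Cy3-labelled cRNA from 100 ng of total RNA was hybridised to 4 one-colour arrays. The files deposited by the authors hold, per spot, a linear intensity from Agilent Feature Extraction 10.7.3.1, net of background and spatial trend. The series matrix holds the same intensity, rounded (ratio 0.995 to 1.005). The log2 intensity of each spot was reduced by the array's 75th percentile over non-control spots that carried no outlier mark (104 to 155 marked spots per array were left out). Spots of a probe were averaged. A difference was taken where a probe was well above background on both arrays. Where only 1 array passed, the dim side was taken as its own level or the lowest level called well above background there, whichever was larger, and the fold is a lower bound. The brightest probe stood for a gene. Of 55681 probes, 27509 were named through RefSeq accessions. Probe coordinates are those of the files (NCBI37) and promoter coordinates those of GRCm38.p6. The place of a probe in an exon or UTR was not analysed here. The contrasts were OSKA + 4OHT against OSKA − 4OHT (AKT activation), OSK + 4OHT against OSK − 4OHT, and OSKA against OSK (AKT-MER) without and with 4OHT. Named were all members, list genes at least 2-fold apart with 4OHT in OSKA cells or else the highest and lowest, and the 3 genes most like Cdh1, Epcam, Snai2 and Cdh2. Some other genes and second probes were named after their values were seen. The members and lists were chosen with earlier results of these data known. Scripts ran in Python 3.11.15 and R 4.3.3 with limma 3.58.1, and were tested on simulated data. Alternatives were normexp with quantile normalization, quantile normalization, scaling to the median or to spike-in probes, the series matrix, other filters on dim probes, the mean of all probes of a gene and 1.5-fold. The number of arrays limits the precision.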

Additional observations from a re-analysis of the deposited data

Results flagged for a closer look

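Twist2 moved in opposite directions with 4OHT, lower in OSKA cells (−0.44) and higher in OSK cells (0.26), and the effects differed by −0.71 on the log2 scale with a software error of 0.29. There was 1 array per group, so the difference was not tested. Scaling to spike-in probes brought the OSK value to −0.04, so that both effects were then below 0 and differed by −0.39. The macrophage markers had a median difference of −0.17 in OSKA and 0.52 in OSK cells in the same comparisons, and their part was not tested.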

How the results depend on the processing

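No paired analysis was possible because each group had 1 array, and for the same reason no replicate could be left out. Of the 80 values that recompute the counts of EMT genes, the cadherin switch and the median difference between the 4OHT effects, 74 kept their size within the software's error or the same count. Some of these could not change. The cadherin switch is the same under scaling to the median or to spike-in probes. The brightest probe of each EMT gene was well above background on all 4 arrays, so filters on dim probes left these genes as they were. The mean of all probes could not change the 8 genes with 1 probe. Normexp with quantile normalization left 0 EMT genes at least 2-fold apart with AKT-MER without 4OHT, where the main setting had 1 (Cdh1, −0.78). Lowering the threshold to 1.5-fold gave 1 gene with 4OHT in OSK cells and 2 in each AKT-MER contrast, and with spike-in scaling as well 3 in OSK cells and 4 with AKT-MER without 4OHT. The cadherin switch with 4OHT in OSKA cells turned from −0.02 to 0.03 and 0.06 after the quantile settings, within the error. The median over the 10 genes of the 4OHT effect in OSKA minus that in OSK cells went from −0.08 to 0.23 under scaling to spike-in probes. The second Cdh2 probe, chosen after seeing the data, moved the cadherin switch with 4OHT in OSK cells from −0.09 to −0.49. Of 324 values of single genes, 25 moved by more than the software's error, and the filters on dim probes could again change none. Scaling to spike-in probes moved the median of all genes to −0.31 with 4OHT in OSK cells, −0.46 with AKT-MER without 4OHT and −0.18 with AKT-MER and 4OHT, and it alone changed signs of EMT genes: Zeb2 (−0.24) and Twist2 (−0.04) with 4OHT in OSK cells, Snai2 (−0.25) and Zeb2 (−0.02) with AKT-MER without 4OHT, and Snai2 (−0.07) with AKT-MER and 4OHT. The cause was not tested. Dim genes such as Epcam, Grhl1 and Esrp1 lie closest to the background, which limits their values.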
